A study of Mus musculus with 8 samples.

Results

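The genes described here encode the Rag GTPases and the proteins through which they control the kinase complex mTORC1 and the transcription factors TFEB and TFE3 at the lysosome. The list holds 10 genes, Rraga, Rragc, Rragd, Flcn, Fnip1, Fnip2, Mtor, Rptor, Tfeb and Tfe3, set among 12000 genes tested on the arrays. It was built around Rragd, which was picked because its ratio of p53 null over wild type had 1 sign on all arrays and one of the smaller p values on these same arrays; the others are its partners in nutrient sensing. Ratios of these 10 genes are therefore a description and carry no test. Of the 10, 9 had a named feature on the array (17 features in all) and 8 passed the filter on dim features with 12 features. Fnip2 had no named feature, and Mtor did not pass the filter.

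The samples were kidneys of p53 null mouse embryos and of p53 wild-type embryos, both C57BL/6 and both at embryonic day 15.5, when nephrons are still forming. Each of 8 two-colour arrays carried null RNA in one dye and wild-type RNA in the other. Replicate 1 had 4 arrays and replicates 2 and 3 had 2 each, with the dyes exchanged within every replicate. The sources used here do not give which bases of Trp53 the null allele lacks, or how many embryos went into an RNA. Replicate 1 lay on slide 1, and replicates 2 and 3 lay on slide 2, so slide and replicate cannot be told apart.

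Rag GTPases work as pairs, RagA or RagB with RagC or RagD, held on the lysosome by the Ragulator complex. When amino acids are plentiful the pair recruits mTORC1, made of the kinase mTOR (Mtor) and the subunit Raptor (Rptor) among others, so that the small GTPase Rheb can switch it on. Folliculin (Flcn), bound to FNIP1 or FNIP2, acts on RagC and RagD and lets mTORC1 phosphorylate TFEB and TFE3, which keeps these factors out of the nucleus. In the nucleus, TFEB and TFE3 bind promoters that hold the letters CACGTG and drive genes of the lysosome and of autophagy, and in cell studies also the genes for RagD and folliculin. Inherited loss of folliculin causes kidney tumours in people, fusions of the TFE3 or TFEB gene drive a class of kidney cancers, and variants of RRAGD cause a salt-losing kidney disease.

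The promoters of 4 of these genes are shown, those of Rragd and Flcn without that motif and those of Rragc and Fnip1 with it. Each runs from 250 bases before to 50 bases after the annotated start, is taken from RefSeq for GRCm38.p6, and is read 5′ to 3′ along the gene. Capitals mark CACGTG, which reads the same on both strands.
Rragd: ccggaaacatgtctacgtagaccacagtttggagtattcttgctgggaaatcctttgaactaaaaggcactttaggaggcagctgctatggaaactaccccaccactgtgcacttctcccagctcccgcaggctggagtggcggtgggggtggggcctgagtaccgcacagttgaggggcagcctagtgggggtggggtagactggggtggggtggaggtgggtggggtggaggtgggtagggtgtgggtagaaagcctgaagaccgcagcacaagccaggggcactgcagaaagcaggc
Flcn: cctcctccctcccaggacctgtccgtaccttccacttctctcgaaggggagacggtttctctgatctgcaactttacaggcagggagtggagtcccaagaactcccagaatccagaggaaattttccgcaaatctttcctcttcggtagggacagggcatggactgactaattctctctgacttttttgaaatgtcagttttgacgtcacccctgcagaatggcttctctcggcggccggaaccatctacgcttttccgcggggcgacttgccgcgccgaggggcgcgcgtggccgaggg
Rragc: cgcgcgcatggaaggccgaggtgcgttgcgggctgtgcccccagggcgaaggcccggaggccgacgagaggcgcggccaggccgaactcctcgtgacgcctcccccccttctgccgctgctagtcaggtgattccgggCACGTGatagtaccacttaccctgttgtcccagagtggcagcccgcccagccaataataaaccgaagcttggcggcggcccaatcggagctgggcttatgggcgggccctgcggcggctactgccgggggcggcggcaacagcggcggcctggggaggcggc
Fnip1: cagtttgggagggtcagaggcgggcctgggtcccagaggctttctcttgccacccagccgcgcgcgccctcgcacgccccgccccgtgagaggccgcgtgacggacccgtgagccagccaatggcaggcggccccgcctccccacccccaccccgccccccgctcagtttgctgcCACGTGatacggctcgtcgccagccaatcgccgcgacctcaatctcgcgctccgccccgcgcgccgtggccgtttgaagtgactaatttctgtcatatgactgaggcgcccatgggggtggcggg
The Rragd window is chr4:32982748-32983047 on the plus strand, and the Flcn window is chr11:59809990-59810289 on the minus strand. Neither holds CACGTG. The Rragc window is chr4:123917183-123917482 on the plus strand and holds 1 copy whose first base lies at −112 from the start. The Fnip1 window is chr11:54437929-54438228 on the plus strand and holds 1 copy at −75. The array design itself was drawn on mm9 per the file headers, and no position on it is used.

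CACGTG occurred in a promoter window of 8.09% of 27025 genes, and of 2 of the 10 genes. The shorter run ACGTG, searched on both strands and contained in CACGTG, occurred in 21.8% of genes. Besides Rragc and Fnip1 it was found in Rptor, at −34. The longer palindrome TCACGTGA occurred in 1.12% of genes, and with G before it and C after it in 0.37%. None of the 10 genes held either. The p53 consensus, searched as a pair of half-sites, occurred in 0.074% of genes and in none of the 10. Windows of this length do not cover introns or distant enhancers.

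The targeted gene was looked at first. The brighter Trp53 feature had log2 ratios of null over wild type of −1.08, −0.47 and −0.45 in replicates 1, 2 and 3, negative on 8 of 8 arrays, with a mean of −0.67 ± 0.36 (SD, n = 3). The other Trp53 feature had 0.16 ± 0.13. Where either feature lies relative to the deleted part is not known here. Flcn, Fnip1 and Rptor lie on chromosome 11, as Trp53 does.

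Of the array's non-control features, between 46.9% and 62.8% were well above background on an array in one genotype, and the number of arrays limits the precision. By the moderated test of limma with Benjamini-Hochberg adjustment, 0 of 20865 features (0%) passed an adjusted p of 0.05, and the lowest adjusted p was 0.279; 3583 had an unadjusted p under 0.05. Across features, replicates 2 and 3 correlated at 0.93, while replicate 1 correlated with them at 0.06 and −0.15. The p values measure the spread between these 3 replicates and nothing wider. All ratios below are log2 of null over wild type after loess, as mean ± SD over 3 replicates unless said otherwise. Whether a lower value in a whole organ comes from fewer cells of a type or from less RNA in each cell cannot be told apart in bulk RNA.

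Rragd, the gene for RagD, was lower in null kidneys on every array. On its brighter feature (A_51_P457989) the arrays of replicate 1 had ratios of −0.55, −0.83, −0.80 and −0.82, those of replicate 2 had −0.88 and −0.93, and those of replicate 3 had −0.98 and −0.83. The feature's level in null kidneys lay between 8.90 and 9.35, with a median of 9.14, and in wild-type kidneys between 9.52 and 10.19, with a median of 9.99 (log2 brightness, 8 arrays each). The 2 genotypes did not overlap, either within a slide or over both. Rragd was picked for having 1 sign on these same arrays, and the share of all features that separate in this way was not computed. The replicate ratios of −0.75, −0.90 and −0.91 gave a mean of −0.85 ± 0.09, which is 0.554 of the wild-type level. Ordered by mean ratio, Rragd stood at place 109 from the lowest of 12000 genes, on the same contrast for which it was picked.

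The other Rragd feature (A_52_P490032) did not pass the filter. It was well above background in null and in wild type on all 4 arrays of slide 1, but on 0 and 1 of 4 arrays of slide 2. Its ratios were −0.40, −0.21 and −0.18 in the 3 replicates and negative on 8 of 8 arrays, with a mean of −0.26 ± 0.12. Both features thus pointed the same way, and the one below the filter gave the smaller difference.

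RagC is the close relative of RagD, and its gene had ratios nearer to 0. The brighter Rragc feature had −0.12, −0.30 and −0.18 in the 3 replicates (−0.20 ± 0.09) and was negative on 7 of 8 arrays. The other had 0.01, −0.21 and −0.22 (−0.14 ± 0.13), negative on 6 of 8. In replicate 1 the arrays with null RNA in Cy5 gave −0.22 and −0.32 on the brighter feature and those with null RNA in Cy3 gave 0.06 and −0.01, so there the size differed with the dye. Rraga, the gene for RagA, was the only one of the 8 with a higher value in null in all 3 replicates, at 0.27, 0.15 and 0.08 (0.17 ± 0.10). Its level lay between 12.32 and 12.67 in null kidneys and between 12.11 and 12.48 in wild-type kidneys, and the ranges overlapped. Over the 3 replicates Rraga averaged 0.31 on the arrays with null RNA in Cy5 and 0.03 on those with null RNA in Cy3, so its size depended on the dye.

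**Figure D1:**
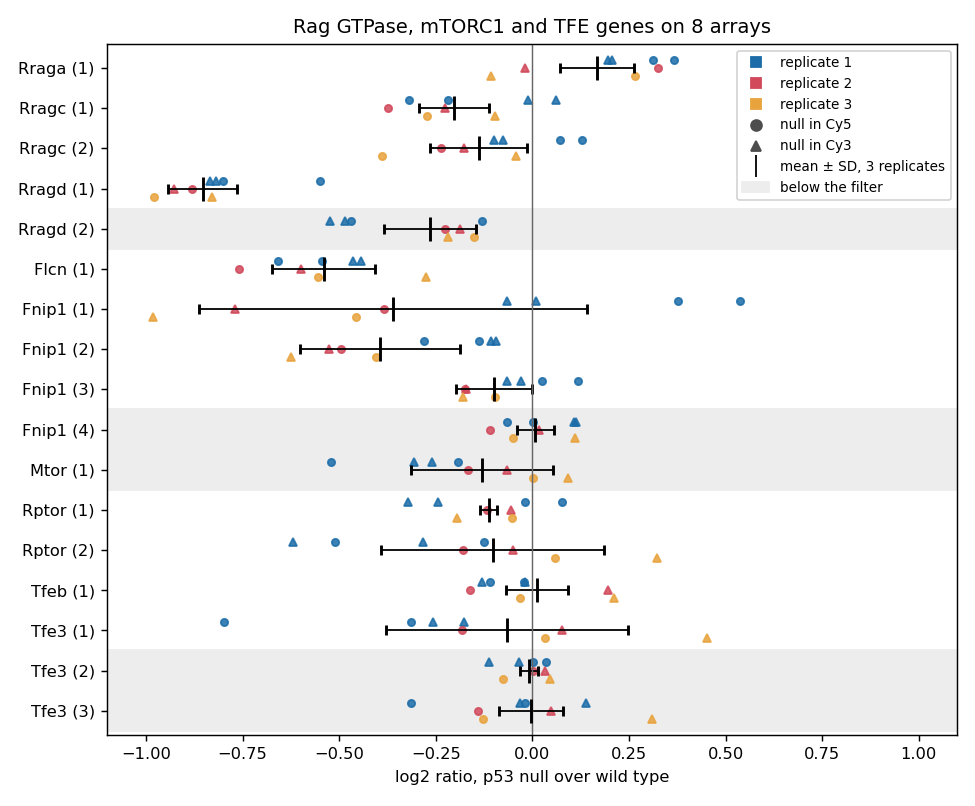
Log2 ratio of p53 null over wild type (horizontal axis) for the 17 features of the 9 measured genes, numbered within a gene from the brightest. Coloured points are arrays by replicate (circles with null RNA in Cy5, triangles with null RNA in Cy3), black bars the mean ± SD of 3 replicates, and grey rows features that did not pass the filter; all 8 points of both Rragd features and of Flcn lie below 0.

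Flcn, the gene for folliculin, came next. The arrays of replicate 1 had −0.54, −0.44, −0.66 and −0.47, those of replicate 2 had −0.76 and −0.60, and those of replicate 3 had −0.56 and −0.27. All 8 were negative. Replicates 1, 2 and 3 averaged −0.53, −0.68 and −0.42, a mean of −0.54 ± 0.13 and 0.688 of the wild-type level, at place 362 of 12000 from the lowest. The level lay between 9.64 and 10.81 in null kidneys (median 10.21) and between 10.21 and 11.26 in wild-type kidneys (median 10.73). These ranges overlapped because both genotypes were brighter on slide 2, but within each slide every null value lay below every wild-type value. The share of all features that separate in this way was not computed.

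Fnip1, which encodes folliculin's binding partner, gave unlike answers on its 4 features and on the slides. The brightest (A_52_P658644) had 0.21 in replicate 1, −0.58 in replicate 2 and −0.72 in replicate 3, a mean of −0.36 ± 0.50. In replicate 1 it had 0.38 and 0.54 with null RNA in Cy5, and −0.06 and 0.01 with null RNA in Cy3. Over the 3 replicates it averaged −0.13 with null RNA in Cy5 and −0.59 with null RNA in Cy3, so its size depended on the dye. Its level lay between 8.54 and 9.40 in null kidneys and between 8.86 and 9.57 in wild-type kidneys, and on slide 1 the genotypes did not separate. The second (A_51_P516922) was negative on 8 of 8 arrays, at −0.16, −0.51 and −0.52 (−0.39 ± 0.21). On both, the size on slide 2 went past that in replicate 1. The third had −0.10 ± 0.10, and the fourth was not well above background in null on any array.

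The plot of levels sets Rragd and Flcn, lower in null on every array, beside Fnip1 and Rraga, whose arrays did not all point one way.

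**Figure D2:**
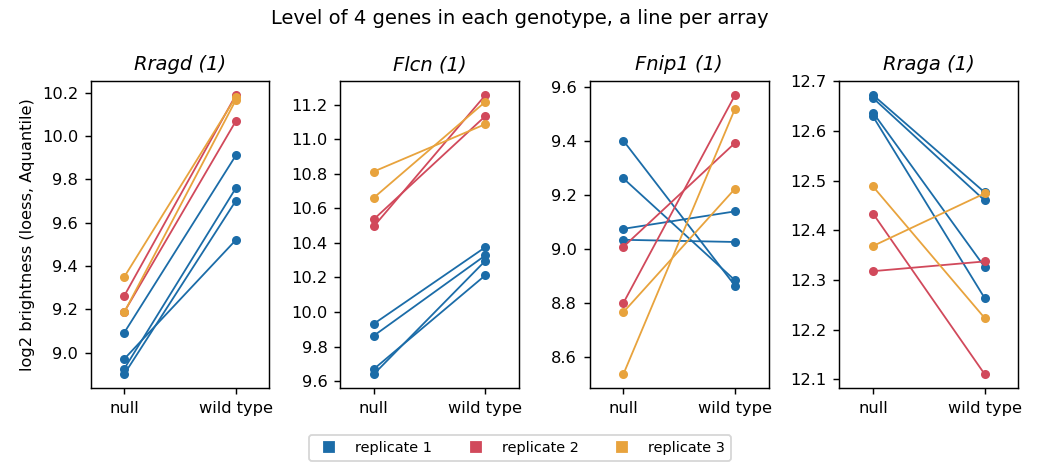
Log2 brightness after loess and quantile scaling of the average brightness between arrays (vertical axis, a separate scale for each gene) of the brightest feature of Rragd, Flcn, Fnip1 and Rraga, with null left and wild type right and a line per array coloured by replicate. All 8 lines climb towards wild type for Rragd and Flcn, while those of Fnip1 and Rraga run both ways.

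Of the mTORC1 subunit genes on the list, Rptor had −0.13, −0.09 and −0.12 on its brighter feature (−0.11 ± 0.02) and −0.38, −0.11 and 0.19 on the other (−0.10 ± 0.29). Mtor, the kinase gene, was well above background on all 4 arrays of slide 1 in both genotypes and on none of slide 2. It had −0.32 in replicate 1, where it was negative on all 4 arrays (−0.19 to −0.52), and values of −0.12 and 0.05 in replicates 2 and 3, where it was not well above background.

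Neither transcription factor gene differed beyond its spread. Tfeb had −0.07, 0.02 and 0.09 (0.01 ± 0.08), and cleared background on 6 arrays with null RNA and 5 with wild-type RNA. Tfe3 had −0.39, −0.05 and 0.24 on its brightest feature (−0.07 ± 0.31), one sign on slide 1 and a mixed one on slide 2. Its other features, both too dim for the filter, had −0.01 ± 0.02 and 0.00 ± 0.08. Tfe3 is X-linked, and so is the gene Xist, the RNA of the inactive X chromosome, which cleared background on 2 arrays with null RNA and on 8 with wild-type RNA and was lower in null on every array; its part in the Tfe3 values was not tested.

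Counted by the brightest tested feature, 6 of the 8 genes had a mean below 0, and 4 (Rragd, Flcn, Rragc and Rptor) were lower in null in all 3 replicates, against 19.7% of all tested genes. Rraga alone was higher in all 3, against 20.4% of all. The median of the 8 was −0.16, against 0.00 for all 12000 genes. Because Rragd was picked on this contrast, nothing is read from these counts.

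Among the 5 genes whose 3 replicate ratios lay nearest to those of Rragd, by Euclidean distance over 3 replicates among 11999 other genes, were H1f3 (a linker histone), Pkm (pyruvate kinase), Rras (a Ras-family GTPase) and Tgm2 (a transglutaminase). H1f3 had −0.55, −1.02 and −0.85 in replicates 1, 2 and 3 and lay at a distance of 0.239. Pkm lay at 0.245, and Rras and Tgm2 at 0.277 and 0.284. These 4 were lower in each replicate, and all 4 had the weaker value in replicate 1, where Rragd had −0.75.

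The rest of the pathway was followed over 99 further genes in 6 lists, of which 94 were tested. With limma, 0 of the 94 passed over all features, and 20 had an unadjusted p under 0.05 (21.3%, against 18.2% of all genes). Of those 20, 17 were lower and 3 higher in null. Without replicate 1, so on slide 2 alone, 61 of the 94 passed (64.9%), against 56.1% of all features in the same fit. The first share counts genes by their brightest tested feature and the second counts features.

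Genes that hold the Rag GTPases on the lysosome or feed them signals had means on both sides of 0, and some of them differed between slides. Of 9 such genes 5 were lower and 4 higher, with a median of −0.05. An unadjusted p under 0.05 was found for 0 (against 18.2% of all genes). The Ragulator subunits Lamtor1, Lamtor2, Lamtor3, Lamtor4 and Lamtor5 had means of −0.05, −0.18, 0.01, 0.00 and 0.03. Lamtor2 had −0.01 in replicate 1 and −0.25 and −0.27 in replicates 2 and 3. Rragb, the gene for RagB and X-linked like Tfe3, had 0.04, −0.28 and −0.37 in the replicates (−0.21 ± 0.22). The arginine sensor gene Slc38a9 had 0.13, −0.44 and −0.45 on one feature (−0.25 ± 0.34) and a mean of 0.24 on another, so its features disagreed.

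Of the upstream GATOR, KICSTOR and sensor genes, 13 of 16 were tested and 8 were lower (median −0.09). An unadjusted p under 0.05 was found for 1 (7.69%, against 18.2% of all genes). GATOR1, which switches RagA and RagB off, was represented by Nprl2 (−0.24 ± 0.15) and Nprl3 (0.20 ± 0.37), while Depdc5 did not pass the filter. The sestrins restrain the pathway when leucine is short, and Sesn1 and Sesn2 are known p53 target genes. Sesn1 had 0.12, 0.10 and 0.11 (0.11 ± 0.01), Sesn2 had −0.53, 0.43 and 0.68, and Sesn3 had −0.09 ± 0.21. Neither p53 target was thus lower in null throughout.

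Among 14 genes of the TSC complex, Rheb and the other mTOR subunits, 7 were lower and 7 higher. Deptor, an inhibitory subunit, had −0.41, −0.40 and −0.32 (−0.38 ± 0.05, limma adjusted p = 0.279), with like values on both slides. The brakes Tsc1 and Tsc2 had −0.26 ± 0.26 and −0.11 ± 0.17, and the means of the 3 tested Tsc1 features ran from −0.69 to −0.26. Rheb, Mlst8 and Rictor had 0.12, 0.17 and −0.13, and Akt1s1 had −0.85 in replicate 1 but 0.30 and 0.67 on slide 2. Ddit4, an inhibitor induced by p53 and by hypoxia, had −0.18 in replicate 1 and −3.15 and −3.14 in replicates 2 and 3.

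Of the mTORC1 substrates, 9 of 10 were tested. Of these, 4 had an unadjusted p under 0.05 (44.4%, against 18.2% of all genes), 2 in each direction. The S6 kinase gene Rps6kb1 had 0.25, 0.55 and 0.40 (0.40 ± 0.15), and the gene for the autophagy kinase Ulk1, which mTORC1 inhibits, had 0.18, 0.83 and 0.72 (0.58 ± 0.35). Eif4ebp1, a translation repressor that mTORC1 inactivates, had −0.20, −0.69 and −0.74 (−0.54 ± 0.30). Each of these had the same sign in all 3 replicates (limma adjusted p = 0.279 for each). Rps6kb2 had 0.15 ± 0.30, and Eif4ebp2 had −0.36, 0.62 and 0.94, so it turned sign between slides. These are transcript ratios, and phosphorylation was not measured.

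Of the 6 other MiT-TFE factors and their regulators 5 were higher and 1 was lower (16.7%, against 49.2% of all genes). In all 3 replicates 2 were higher (33.3%, against 20.4% of all genes). Tfec, a relative of TFEB, had 0.22, 0.36 and 0.20 (0.26 ± 0.09, limma adjusted p = 0.279). It cleared background on 8 arrays with null RNA and only 5 with wild-type RNA. Mitf had −0.06 ± 0.26.

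Lysosomal and autophagy genes known as TFEB and TFE3 targets were mostly lower in null. Of 44 listed, 43 were tested, of which 35 had a mean below 0 (81.4%, against 49.2% of all genes). In all 3 replicates 18 were lower (41.9%, against 19.7% of all genes) and 1 was higher. The median was −0.18 over the replicates, and −0.12, −0.23 and −0.17 in replicates 1, 2 and 3. With limma 0 passed over all features. An unadjusted p under 0.05 was found for 12 (27.9%, against 18.2% of all genes), all of them lower in null.

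Most genes of the enzymes and of the proton pump had means below 0. Of 18 hydrolases and their activators 16 were lower, 10 of them in all 3 replicates, with a median of −0.33. Hexa, a subunit of beta-hexosaminidase, had −0.40, −0.77 and −0.51 (−0.56 ± 0.19), and the protease gene Ctsd had −0.31, −0.37 and −0.18 (−0.29 ± 0.10), both with limma adjusted p = 0.279. Ctsa, which protects other hydrolases, had −0.34 ± 0.26 and Gla, the galactosidase gene, −0.15 ± 0.15. Of 14 subunits and accessory proteins of the proton pump that acidifies the lysosome 12 were lower, 4 of them in all 3 replicates, with a median of −0.13. Atp6v0d1 and Atp6v1h had −0.18 ± 0.31 and −0.08 ± 0.14.

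Of 6 genes of the lysosomal membrane 3 were lower, with a median of −0.01. The calcium channel gene Mcoln1 had 0.03, −0.43 and −0.49 (−0.30 ± 0.28), and Lamp1, a main glycoprotein of that membrane, had 0.08 ± 0.12. Of 5 genes of autophagy and trafficking 4 were lower, among them the cargo receptor gene Sqstm1 at 0.03, −0.39 and −0.32 (−0.23 ± 0.23). Gpnmb, a membrane glycoprotein gene that TFE3 drives, did not pass the filter. This division into roles was made after the values were seen.

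**Figure D3:**
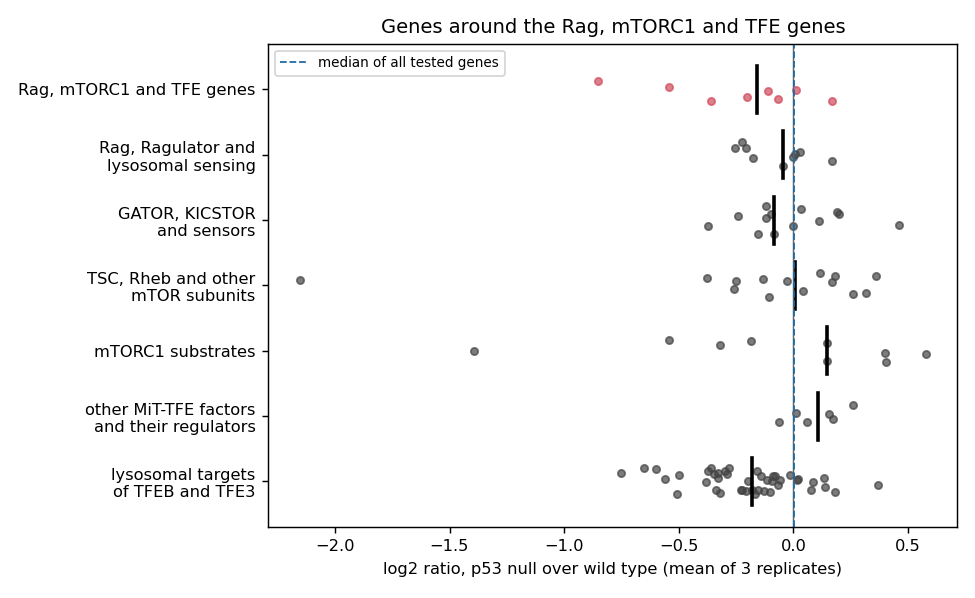
Mean log2 ratio of p53 null over wild type over 3 replicates (horizontal axis), a point per tested gene, for the Rag, mTORC1 and TFE genes (red) and the 6 further lists (grey), with a black bar at each list's median. The lysosomal targets sit mostly left of 0 with a median of −0.18, while the other MiT-TFE factors and the mTORC1 substrates have medians above 0 (0.11 and 0.15).

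The lysosomal shift is measured against the array's other genes and depends on how the arrays are scaled. Centring each array on its median without loess moved the median of all tested genes to 0.15, with 0.04 in the dimmest 20% of genes and 0.28 in the brightest 20%. Of the 43 lysosomal genes, 0 were among the dimmest 20% and 12 among the brightest. Under that scaling 20 of 43 had a mean below 0 and the list median was 0.01. Relative to the all-gene median of the same scaling it was −0.15, with 31 of 43 genes below that median. On the same relative footing Rragd had −0.81, Flcn −0.46, Fnip1 −0.33 and Rraga 0.28, and Rragc and Rptor, whose centred values were 0.04 and 0.05, had −0.11 and −0.10.

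CACGTG was found in the promoter windows of 16 of the 36 lysosomal genes that had one (44.4%, against 8.09% of 27025 genes). The lysosomal genes were listed as known targets of factors that bind this motif, so nothing is read from that share. The 16 tested genes with the motif had a median ratio of −0.28, 13 of them with a mean below 0, and 9 were lower in all 3 replicates. The 19 tested genes without it had −0.16, with 14 below 0, and 6 were lower in all 3. The ranges overlapped, from −0.65 to 0.37 with the motif and from −0.75 to 0.18 without it. Of the 4 promoters printed above, those of Rragc and Fnip1 hold it and those of Rragd and Flcn do not. The rest of the 10 genes lack it too, and the tested ones had 0.17 (Rraga), 0.01 (Tfeb), −0.07 (Tfe3) and −0.11 (Rptor). Nothing is read from that, since the list was built on the Rragd ratio.

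Genes of the hypoxia response were lower in null on 17 of 17 measured (100%, against 49.2% of all genes). Of these, 10 were lower in all 3 replicates (58.8%, against 19.7% of all genes). With limma 0 passed over all features, and 14 had an unadjusted p under 0.05 (82.4%, against 18.2% of all genes), all of them lower. The hypoxia genes had medians of −0.04, −2.14 and −2.29 in replicates 1, 2 and 3. On slide 1 they ran from −0.44 (Ldha) to 0.14 (Slc2a1). Their summed level lay between 15.6 and 15.8 in null and between 15.9 and 18.3 in wild type (log2). Rragd had −0.75, −0.90 and −0.91 beside them, and the part of hypoxia genes in its ratio was not tested. The brightest Fnip1 feature and the lysosomal genes Mcoln1 and Sqstm1 were near 0 or above in replicate 1 and lower on slide 2. The second Fnip1 feature had −0.16 in replicate 1, and the lysosomal list had a median of −0.12 there. The part of hypoxia genes in these ratios was not tested either. Macrophage markers were higher in null on 7 of 7 tested, 3 of them in all 3 replicates. Their median was 0.45 (−0.02, 0.48 and 0.58 in the replicates), and their part in the lysosomal ratios was not tested. Their summed level lay between 11.3 and 12.3 in null and between 11.2 and 11.6 in wild type (log2), and Mrc1 alone of those measured was well above background on only 4 of 8 arrays.

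The kidney label was checked against marker genes. Pax2, Wt1, Six2, Cited1, Gata3, Lhx1, Cdh16, Nphs1 and Foxd1 cleared background on all 8 arrays in both genotypes, Hoxd11 on 4, and Ret on none with null RNA and 1 with wild-type RNA. These kidney markers had a median of −0.14, with 7 of 10 tested lower in null. Loop of Henle and distal tubule markers, where RagD has its known part in salt transport, were higher in null on 10 of 11 measured, with a median of −0.07, 0.49 and 0.47 in replicates 1, 2 and 3. Their summed level lay between 13.9 and 14.1 in null and between 13.7 and 14.0 in wild type (log2), and Slc12a3 was not well above background on any array. Their part in the Rragd ratio was not tested.

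Markers of other tissues that a dissection can carry along also differed between genotypes, mostly on slide 2. Liver markers were higher in null on 3 of 3 tested (8 were listed), with medians of −0.06, 1.03 and 0.88 in replicates 1, 2 and 3. Their summed level lay between 11.02 and 12.18 in null and between 10.37 and 11.48 in wild type (log2), and Ttr did not clear background on any array. Adrenal markers were higher on 3 of 4 tested (8 were listed), with medians of 0.11, 0.49 and 0.48. Chgb had the lower mean, at 0.14, −1.40 and −1.41. The summed level of the adrenal markers lay between 10.2 and 11.7 in null and between 10.2 and 10.8 in wild type. Th and Dbh did not clear background on any array. Erythroid markers were higher on 5 of 6 tested, with medians of −0.31, 1.26 and 1.56 and summed levels between 16.9 and 17.6 in null and between 16.1 and 17.5 in wild type. The embryonic globin gene Hbb-y went the other way, at 0.46, −2.44 and −2.76. The part of these markers in the ratios of the Rag, mTORC1, TFE and lysosomal genes was not tested.

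**Figure D4:**
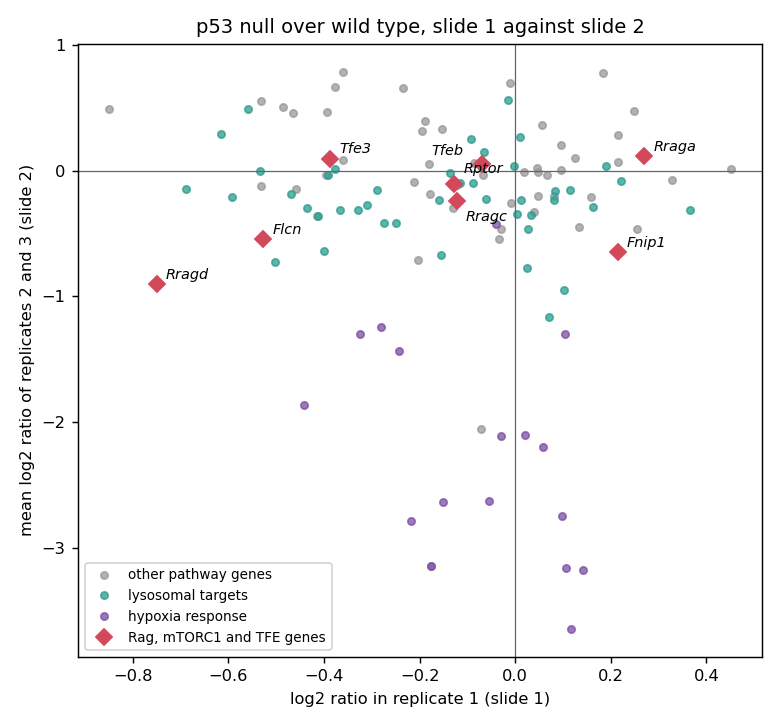
Log2 ratio of p53 null over wild type in replicate 1 on slide 1 (horizontal axis) against the mean of replicates 2 and 3 on slide 2 (vertical axis), a point per gene. Rragd and Flcn lie below 0 on both axes, at −0.75 and −0.90 and at −0.53 and −0.55. Hypoxia genes (purple) lie between −0.44 and 0.14 in replicate 1. On slide 2 they lie below 0, with medians of −2.14 and −2.29 in replicates 2 and 3.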

How the data were processed

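The authors deposited scanner files with median spot and background brightness as linear intensity. Their headers name Agilent Feature Extraction 10.5.1.1, whereas version 6.1 appears in the submitters' processing notes. The files also give, per the file headers, a log10 ratio (red over green). Where the deposited value table holds a value, it equals that ratio as log10 of null over wild type (largest difference 4.94e-06). Between 7732 and 14364 non-control spots per array are empty in the deposited value table. Its column medians were 0.0083, −0.0024, 0.0042 and 0.0015 (replicate 1), 0.00083 and 0.0064 (replicate 2), and 0.0064 and 0.011 (replicate 3).

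Ratios were computed in limma 3.58.1 under R 4.3.3: normexp (offset 50), loess with the 1639 control spots at weight 0, sign turned to null over wild type, and the 2 dye orientations averaged within a replicate. The offset compresses dim ratios. Of 41174 features, 25097 were named through their RefSeq accession in GRCm38.p6. Features were kept if 1 genotype cleared background in every replicate, on 50% of its arrays or more (20880 features, of which 20865 had 3 values). The 3 values were tested against 0, two-sided. A gene is given by its brightest tested feature. The fit was checked on simulated data.

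The genes, lists, motifs and alternatives were chosen with earlier results of these data known. All features of the 10 genes, Trp53, preset genes of each list and the 5 genes nearest to Rragd are named, except for items that are not reported here. Levels are after quantile scaling of average brightness.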

Additional observations from a re-analysis of the deposited data

Results flagged for a closer look

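Rragd on array 1 of replicate 1 stood apart from the other 7 arrays of its brighter feature, at −0.549 against −0.80 to −0.98 on the others (Dixon's gap over range of 0.583). It was 1 of 17 features looked at in this way, and chance marks about 5% of such groups. The dim Rragd feature (−0.13 against −0.47 to −0.52 on the other arrays of replicate 1) and Trp53 (−0.57 against −1.18 to −1.31) were also nearer to 0 on that array. Without it, an alternative chosen after seeing the data, Rragd had −0.87 and Flcn −0.55 over the 3 replicates, and 35 of 43 lysosomal genes had a mean below 0.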

How the results depend on the processing

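Over 18 alternatives, Rragd lay between −0.95 and −0.65, Flcn between −0.64 and −0.30, Fnip1 between −0.65 and −0.13 and Rraga between 0.03 (null RNA in Cy3 only) and 0.44 (median centring), with no turn of sign. Rragc (0.04) and Rptor (0.05) turned positive with median centring in place of loess. Tfe3 lay between −0.24 (null RNA in Cy5 only) and 0.10 and was positive in 3 settings, at 0.09 without replicate 1, 0.05 with median centring and 0.10 with null RNA in Cy3 only. Tfeb was −0.03 without replicate 3, −0.01 with slide as a fixed block and −0.09 with null RNA in Cy5 only. The number of features passing limma's test was 0, and 0 to 11699 (of 20870) when a replicate was left out, the highest without replicate 1; it was 8521 with slide as a fixed block and 1183 with all 8 arrays and the replicate as a random effect. Of the 94 pathway genes the same settings gave 0 to 61, 49 and 10. Without replicate 1 and with slide as a block the spread comes from slide 2 alone. The lysosomal genes below 0 were 20 with median centring, and 31 to 37 in the other alternatives; trying them on this count was chosen after seeing the data. Dim features (Mtor, Tfeb, the second Rragd feature) were measured on part of the arrays only.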
